A study of Mus musculus with 12 samples.

Results

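Macrophage identity genes were followed in dendritic cells cultured from mouse bone marrow (BMDC). The 9 genes, chosen by their symbols as textbook markers or regulators of macrophages, were Adgre1, Csf1r, Maf, Mertk, Mrc1, Fcgr1, C1qa, C1qb and C1qc, out of 55335 genes listed. All 9 were present in the annotation, and all 9 passed the filter on low counts that left 14357 genes for testing. Bulk RNA-seq was available for 12 libraries in 4 groups of 3. BMDC were grown from the bone marrow of C57BL/6 mice for 6 days with GM-CSF, a growth factor for myeloid cells, with fresh medium every 2 days. Every group had the genotype CreER, a tamoxifen-inducible Cre recombinase that the study's methods place at the Rosa26 locus, and an intact Ctcf gene. WT was unstimulated. WTL received 100 ng/ml lipopolysaccharide (LPS), a bacterial cell wall component that activates dendritic cells, for 3 h. WT + JSH23 received 100 µM JSH-23, an inhibitor of the nuclear entry of the NF-κB subunit RelA, for 3 h. WTL + JSH23 received JSH-23 first and then LPS at those doses and times.

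Several features limit the groups as models. The study's methods describe adult mice of both sexes and a positive selection of floating CD11c+ cells, so that adherent cells of the same dishes were not part of the selection. The sources used here do not state if a solvent control was given to the groups without JSH-23. By the study's account, 4-hydroxytamoxifen served to delete Ctcf in the knockout cultures. Its wording does not settle if the WT cultures also received it. The libraries without JSH-23 are numbered 4 to 6 and those with it 1 to 3, so that JSH-23 and any difference between these series of cultures cannot be told apart. The study's methods give 3 biological replicates per condition for RNA-seq. Neither they nor the labels say that libraries of 1 group came from separate mice. The p values then describe the spread between libraries only. Library totals ran from 24664724 to 34837847 expected counts, and mitochondrial genes held between 3.15% and 3.64% of them. WTL + JSH23 replicate 3 lay farthest from its own group, with a chi-square per degree of freedom of 8.19 and 9.12 to the other two, against 2.32 to 4.50 in all other pairs of replicates.

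Macrophages and dendritic cells both arise from myeloid precursors, and cultures with GM-CSF hold cells with features of each. The macrophage genes cover several functions, namely growth factor sensing (Csf1r), transcriptional control (Maf), adhesion-type receptors of the cell surface (Adgre1, which encodes F4/80), uptake of dying cells (Mertk), capture of sugars and antibody-coated particles (Mrc1, which encodes CD206, and Fcgr1, which encodes CD64), and the first component of complement (C1qa, C1qb and C1qc). In bulk RNA, fewer cells of a type and less RNA per cell cannot be told apart.

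The marker genes of the cultures were checked first. All 14 dendritic cell markers were detected, and their summed level was between 24998 and 28444 TPM (transcript abundance corrected for gene length and scaled to one total per library). This list includes genes of the major histocompatibility complex class II, and its sum does not measure the share of dendritic cells. Itgax, which encodes CD11c, had a mean of 317 TPM in WT, and Zbtb46, a transcription factor of classical dendritic cells, had 23.5 TPM. Flt3, the receptor for the dendritic cell growth factor Flt3 ligand, was low at 2.94 TPM. The 9 macrophage genes together summed to between 2397 and 2514 TPM in WT. A further 17 macrophage-associated genes summed to between 16633 and 17417 TPM in WT. Of these 17, 6 stayed under 1 TPM in every library. Among them were markers of resident tissue macrophages such as Cd163, Timd4, Lyve1 and Vsig4, which was at 0 in all 12 libraries. All 5 markers of B cells, all 5 of erythroid cells and all 4 of mast cells and basophils were under 1 TPM in every library. For T and NK cells 4 of 5 markers were, and the sum reached 3.54 TPM in WT + JSH23. For eosinophils 1 of 3 markers was, and the sum reached 3.32 TPM in WT. For stromal cells 4 of 5 markers were, and the sum reached 7.28 TPM in WTL. The monocyte markers summed to between 489 and 994 TPM and the 9 neutrophil markers to between 171 and 226 TPM.

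Per gene length, the 9 genes differed widely in level. In WT the order by mean TPM was C1qb (1006 ± 29.4, SD, n = 3), Csf1r (494 ± 14.8), C1qc (330.0 ± 4.68), C1qa (279 ± 12.03), Fcgr1 (155 ± 1.76), Adgre1 (145 ± 3.69), Mertk (23.6 ± 0.720), Maf (15.9 ± 1.10) and Mrc1 (12.7 ± 0.416). No neighbours in this order overlapped between libraries. In WTL, Csf1r (232 ± 22.3 TPM) and C1qc (227 ± 8.80 TPM) overlapped and so had no order, and in WTL + JSH23 the same held for Fcgr1 (30.1 ± 4.66 TPM) and Mertk (23.8 ± 2.80 TPM). C1qb was the highest and Csf1r had the next highest mean in each group. Maf moved from the eighth place in WT to the last in the other three groups, where its TPM fell below that of Mrc1.

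**Figure D1:**
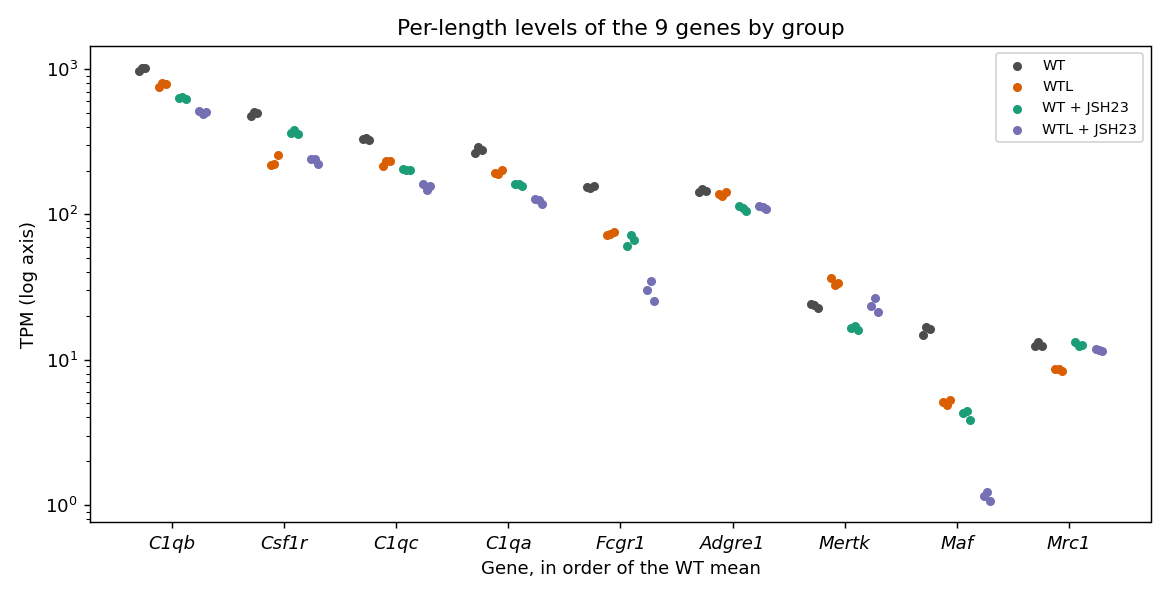
TPM of the 9 macrophage genes (log axis), with 1 point per library and colours for the 4 groups, in the order of the WT mean. C1qb was near 1006 TPM in WT, while Maf ranged from 15.9 TPM in WT to 1.15 TPM in WTL + JSH23.

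The response to LPS was examined by comparing WTL with WT. Among the 9 genes, 2 were higher (Adgre1 and Mertk), 6 were lower and 1 (C1qb) did not pass an adjusted p of 0.05 in the edgeR quasi-likelihood test. Over all genes tested, 31.0% were higher and 34.7% were lower. At more than 2-fold 1 of the 9 genes was lower (Maf), against 9.09% of all genes lower and 7.36% higher by that rule. The median log2 fold change was -0.20 for the 9 genes and -0.05 for all genes.

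The same question was asked in the presence of the inhibitor by comparing WTL + JSH23 with WT + JSH23, a pair of groups that shares no library with the first. Again 2 of the 9 genes were higher (Adgre1 and Mertk), 6 were lower and 1 (Mrc1) did not pass. The shares of all genes were 27.4% higher and 27.1% lower. More than 2-fold lower was 1 gene, Maf, with a background of 4.49% lower and 5.85% higher. The median was -0.17 for the 9 genes and -0.02 for all genes.

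These small LPS changes depended on how the libraries were scaled. CPM (counts scaled to one library size) is given here on library sizes scaled by edgeR's trimmed mean method (TMM). When total counts were used without that step, the median of all genes moved from -0.05 to -0.38 without JSH-23 and from -0.02 to -0.26 with it. The rise of Adgre1 under LPS was lost on that scale, at -0.08 without JSH-23 and 0.00 with it, although relative to the median of all genes Adgre1 was 0.29 and 0.26 higher. Over all genes, the LPS calls without JSH-23 were 4451 higher and 4986 lower with TMM, but 2106 and 8601 with total counts alone. With JSH-23 they were 3935 and 3893 against 2011 and 7601. The JSH-23 comparison under LPS moved from 3516 higher and 3478 lower to 5460 and 2241, that without LPS from 2701 and 3180 to 3271 and 2690, and the interaction from 1370 and 1212 to 2499 and 651. Mertk, Maf, Fcgr1, Csf1r, C1qa and C1qc kept their LPS direction under every scaling tried, in both comparisons.

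JSH-23 was examined without LPS by comparing WT + JSH23 with WT. Of the 9 genes, 8 were lower and Mrc1 did not pass. The count of genes that were higher was 0, also at an unadjusted p of 0.05 and by DESeq2. Over all genes, 22.1% were lower and 18.8% were higher. Maf and Fcgr1, 2 of the 9, were more than 2-fold lower, where 2.94% of all genes were lower and 2.43% higher by that rule. The median was -0.66 for the 9 genes and -0.01 for all genes, and no scaling tried changed a call among the 9.

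Under LPS, WTL + JSH23 was compared with WTL, which shares its libraries with the LPS comparisons. Here 7 of the 9 genes were lower, 1 (Mrc1) was higher and 1 (Csf1r) did not pass. The shares of all genes were 24.2% lower and 24.5% higher. Again Maf and Fcgr1 were more than 2-fold lower, with a background of 3.25% lower and 3.75% higher. The median was -0.67 for the 9 genes and 0.02 for all genes.

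Markers of other cells moved with JSH-23. All 6 monocyte markers were lower with it in both comparisons, and their summed level went from between 956 and 994 TPM in WT to between 523 and 550 TPM in WT + JSH23. Under LPS the sum was between 871 and 920 TPM in WTL and between 489 and 563 TPM in WTL + JSH23. Of 9 neutrophil markers 6 were tested and all 6 were lower in WTL + JSH23 than in WTL, while 1 was lower in WT + JSH23 than in WT. Of the 14 dendritic cell markers, 3 were higher and 6 lower with JSH-23 without LPS, and 2 were higher and 9 lower under LPS. The shares of all genes were 18.8% higher and 22.1% lower without LPS, and 24.5% higher and 24.2% lower under LPS. Itgax was lower by 0.12 on the log2 scale in both comparisons, but neither call held with total counts alone (adjusted p = 0.0873 without LPS, and a value of 0.01 under LPS) or on log2(TPM + 1). Without LPS it was also lost without WT replicate 5 (adjusted p = 0.076) or WT + JSH23 replicate 3 (adjusted p = 0.0783). The part of these cells in the changes of the macrophage genes was not tested.

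**Figure D2:**
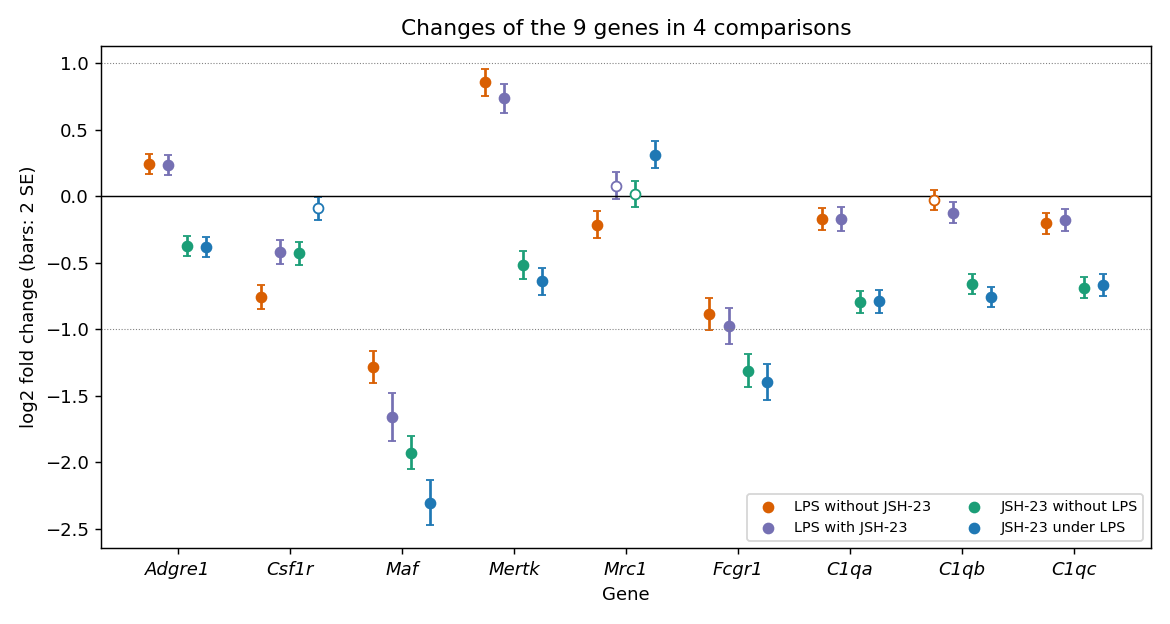
Log2 fold change of each of the 9 genes in the 4 comparisons (vertical axis), with bars of 2 SE, filled points at an adjusted p under 0.05 and open points otherwise. The dotted lines mark 2-fold. Maf lay lowest in all 4 comparisons, from -1.28 to -2.30, and Mertk rose with LPS by 0.86 and 0.74 but was lower with JSH-23.

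**Figure D3:**
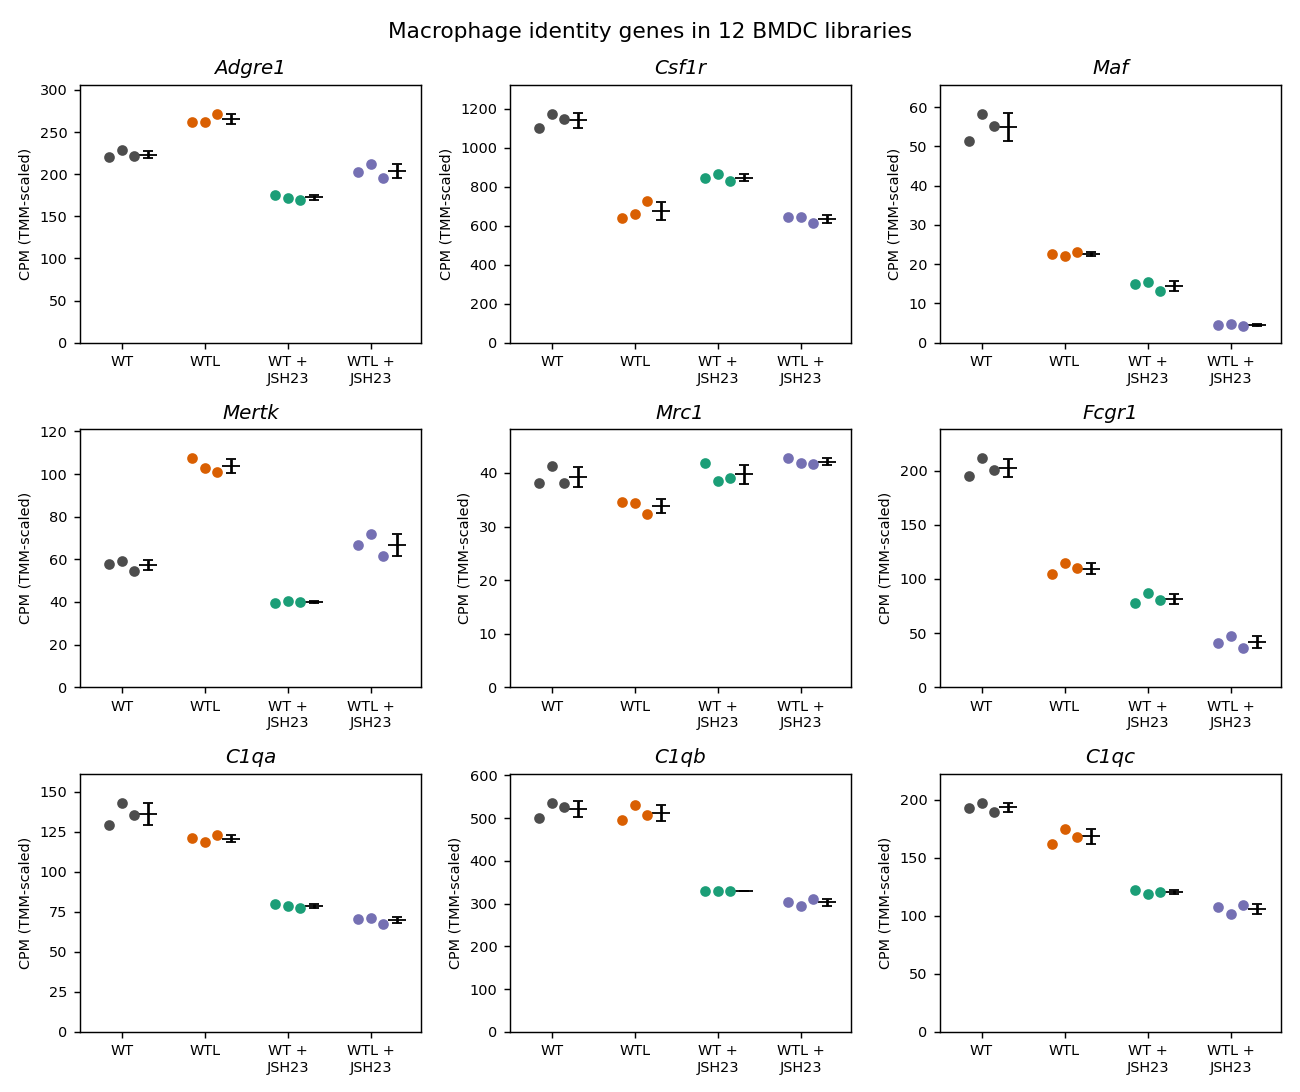
CPM of each macrophage gene (axes from 0), with 1 point per library and the mean ± SD of 3 libraries in black beside each group. For Maf, Fcgr1, C1qa and C1qc the 4 groups were apart and fell in the order WT, WTL, WT + JSH23 and WTL + JSH23.

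Maf, a transcription factor of the large MAF family that takes part in macrophage differentiation, showed the largest changes of the 9 genes. The gene lies on chr8:115682942-115707794 of the minus strand of GRCm38 (mm10), and its counts ran from 98 to 2050 per library. The CPM of Maf was 51.3, 58.3 and 55.2 in WT, 22.6, 22.1 and 23.2 in WTL, 14.8, 15.4 and 13.1 in WT + JSH23, and 4.61, 4.85 and 4.23 in WTL + JSH23. No group overlapped another, and the group with both treatments was the lowest. Maf fell by 1.28 ± 0.060 (log2, SE, adjusted p = 4.56e-14) with LPS and by 1.66 ± 0.090 (adjusted p = 1.16e-12) with LPS in the presence of JSH-23. With JSH-23 it was lower by 1.93 ± 0.062 without LPS and by 2.30 ± 0.086 under LPS. Together the treatments left 8.31% of the WT mean. The LPS fall was larger with JSH-23 by 0.38 ± 0.11 (interaction, adjusted p = 0.0229), a call that was lost without any 1 of 4 libraries, with an adjusted p between 0.0503 and 0.0618, and with total counts alone (adjusted p = 0.0777). In limma on log2(TPM + 1) the difference had the opposite sign (0.21, adjusted p = 0.278). In limma on log2(TPM + 0.1) it was -0.15, with the sign of the main fit (adjusted p = 0.528). The mean of Maf in WTL + JSH23 was 1.15 TPM, near the offset of 1. Maf had fractional expected counts in 3 libraries and overlaps an antisense RNA gene.

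Other transcription factors of myeloid cells gave a mixed picture. Of 13 on the list, 5 were higher and 5 lower with JSH-23 without LPS, and 6 were higher and 5 lower with LPS. Among all genes, 18.8% were higher and 22.1% lower with JSH-23, and 31.0% were higher and 34.7% lower with LPS. Spic, which is needed for red pulp macrophages of the spleen, rose with JSH-23 by 1.73 ± 0.061 without LPS and by 1.19 ± 0.058 under LPS. Its CPM was 11.9 ± 0.963 in WT and 39.4 ± 1.79 in WT + JSH23, opposite in direction to Maf. Cebpa, a regulator of granulocyte and macrophage precursors, was higher with JSH-23 by 0.35 ± 0.043 without LPS and by 0.98 ± 0.056 under LPS, and fell with LPS by 1.85 ± 0.052. Tfec, a relative of MITF found in macrophages, rose with LPS by 1.46 ± 0.043 and 1.55 ± 0.045 and was lower with JSH-23 by 0.72 ± 0.046 and 0.62 ± 0.042. Id3, an inhibitor of helix-loop-helix factors, fell with LPS by 0.88 ± 0.13 and 1.22 ± 0.12 from 5.77 ± 0.465 CPM in WT. Nr1h3, which encodes the oxysterol receptor LXRα, was lower with JSH-23 by 0.78 ± 0.079 and 0.97 ± 0.090.

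Csf1r encodes the receptor for the macrophage growth factors CSF1 and IL-34 and lies on chr18:61100598-61132149 of the plus strand. The CPM of Csf1r was 1101, 1175 and 1145 in WT, 638, 661 and 728 in WTL, 843, 867 and 831 in WT + JSH23, and 647, 643 and 614 in WTL + JSH23. WT was the highest and WT + JSH23 the next, while WTL and WTL + JSH23 overlapped. Csf1r fell with LPS by 0.76 ± 0.044 (adjusted p = 2.08e-12) without JSH-23 and by 0.42 ± 0.044 (adjusted p = 5.50e-08) with it, and the 2 LPS changes differed by 0.34 ± 0.062 (interaction, adjusted p = 0.000583). With JSH-23 it was lower by 0.43 ± 0.044 without LPS (adjusted p = 5.17e-08). Under LPS the JSH-23 difference was -0.09 ± 0.044 (adjusted p = 0.0963), and it passed with DESeq2 at -0.11 (adjusted p = 0.0282). Leaving out WTL replicate 4 gave -0.13 (adjusted p = 0.0284), and total counts alone gave 0.04 with no call. Csf1r had fractional counts in all 12 libraries and overlaps the gene Hmgxb3 on the other strand.

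The ligand Csf1 rose with LPS from 32.0 ± 1.55 to 145 ± 2.46 CPM, a log2 change of 2.18 ± 0.048, and by 2.02 ± 0.049 in the presence of JSH-23. The TPM ratio of Csf1r to Csf1 was thus 31.3 ± 3.00 in WT and 4.24 ± 0.392 in WTL. With JSH-23, Csf1 differed by -0.09 ± 0.052 (adjusted p = 0.175) without LPS and was lower by 0.25 ± 0.044 under LPS, a call that was lost on log2(TPM + 1) (adjusted p = 0.0833). Csf2ra, the specific chain of the GM-CSF receptor, did not pass with JSH-23 (0.03 ± 0.047 and 0.01 ± 0.048). Its LPS change was 0.17 ± 0.048 without JSH-23 and changed sign to -0.16 with total counts alone. Csf2rb, which encodes the signalling chain of that receptor, fell with LPS by 1.04 ± 0.038 and 0.80 ± 0.038, but is near-identical to Csf2rb2, so that their reads may be divided unevenly. Csf2rb2 itself fell with LPS by 0.77 ± 0.036 and was lower with JSH-23 by 0.35 ± 0.036 without LPS. Csf3r, the receptor for the granulocyte factor G-CSF, was lower with JSH-23 by 0.44 ± 0.058 and 0.37 ± 0.064, and its ligand gene Csf3 was at 3.77 ± 0.709 CPM in WTL and 1.70 ± 0.448 CPM in WTL + JSH23, against at most 0.0241 CPM on average in the groups without LPS. Of the 6 colony-stimulating factor genes tested from a list of 8, 3 were higher and 3 lower with LPS. With JSH-23 without LPS, 3 were lower. Among all genes, 31.0% were higher and 34.7% lower with LPS, and 22.1% were lower with JSH-23 without LPS.

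Adgre1 encodes F4/80, an adhesion G protein-coupled receptor that is a classical marker of mouse macrophages, and lies on chr17:57358691-57483527 of the plus strand. The CPM of Adgre1 was 220.0, 228 and 222 in WT, 261, 262 and 272 in WTL, 176, 172 and 169 in WT + JSH23, and 202, 212 and 196 in WTL + JSH23. The 4 groups did not overlap, with WTL the highest and WT + JSH23 the lowest. On the TMM scale it was higher with LPS by 0.25 ± 0.037 (adjusted p = 5.71e-06) and by 0.24 ± 0.038 with JSH-23 present, while the deposited TPM means were 145 in WT and 138 in WTL. With JSH-23 it was lower by 0.37 ± 0.038 and 0.38 ± 0.038, and the LPS change did not differ between the arms beyond its error (-0.01 ± 0.053, adjusted p = 0.943).

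Among other adhesion receptors, Adgre4 and Adgre5 were also lower with JSH-23. Adgre4, a relative of Adgre1 found on monocytes and macrophages, had 125 ± 5.29 CPM in WT and 42.2 ± 3.59 CPM in WT + JSH23, a fall of 1.57 ± 0.084 on the log2 scale, and fell by 1.73 ± 0.087 under LPS. Adgre5, which encodes CD97, was lower by 0.69 ± 0.045 and 0.42 ± 0.053, and fell with LPS by 1.69 ± 0.048. Adgrl2 and Adgrg6 were higher with JSH-23, Adgrl2 by 1.58 ± 0.16 and 0.65 ± 0.094 from a low level of 1.11 ± 0.216 CPM, and Adgrg6 by 0.26 ± 0.050 and 0.22 ± 0.050. Adgrl2 also rose with LPS by 3.24 ± 0.14. The LPS change of Adgrg6 was 0.23 ± 0.050 on the TMM scale and -0.10 with total counts alone. Of the 7 genes tested from this list of 10, 2 were higher and 2 lower with JSH-23 in both comparisons. The shares of all genes were 18.8% higher and 22.1% lower without LPS, and 24.5% higher and 24.2% lower under LPS.

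Mertk encodes a receptor tyrosine kinase of the TAM family (Tyro3, Axl and Mertk) that binds dying cells through bridging proteins such as GAS6. It lies on chr2:128698956-128802894 of the plus strand. The CPM of Mertk was 57.7, 59.2 and 54.5 in WT, 107, 103 and 101 in WTL, 39.5, 40.5 and 40.1 in WT + JSH23, and 66.5, 72.1 and 61.5 in WTL + JSH23. WTL was the highest group, WT + JSH23 the lowest, and none overlapped. Mertk rose with LPS by 0.86 ± 0.050 (adjusted p = 2.46e-12) without JSH-23 and by 0.74 ± 0.053 (adjusted p = 1.46e-10) with it, and was lower with JSH-23 by 0.51 ± 0.053 and 0.64 ± 0.051. The 2 LPS changes differed by -0.12 ± 0.073 (adjusted p = 0.281). After both treatments the mean was 117% of that in WT.

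Axl, the other TAM receptor with high counts, was also lower with JSH-23, by 0.57 ± 0.034 without LPS and by 0.58 ± 0.035 under LPS. Its CPM was 1234 ± 34.5 in WT and 833 ± 13.7 in WT + JSH23. The LPS change of Axl was 0.15 ± 0.034 on the TMM scale and -0.18 with total counts alone. In TPM, Axl stood 23.4 ± 0.955 times above Mertk in WT and 14.8 ± 1.14 times in WTL. The ligand Gas6 was low, at 1.67 ± 0.231 CPM in WT and 2.91 ± 0.352 CPM in WT + JSH23, and rose with JSH-23 by 0.80 ± 0.16 without LPS. Tyro3 was at 1.57 ± 0.252 CPM in WT and rose with LPS by 0.81 ± 0.19 without JSH-23, a call that was lost on log2(TPM + 1) (adjusted p = 0.165). Of 14 tested genes of apoptotic cell uptake, 4 were higher and 8 lower with JSH-23 without LPS, with the same counts under LPS. Among all genes, 18.8% were higher and 22.1% lower without LPS, and 24.5% were higher and 24.2% lower under LPS. Itgav, an integrin chain of this list, rose with LPS by 2.36 ± 0.053, and Stab1, a scavenger receptor, fell by 1.69 ± 0.063. Cd36, another scavenger receptor, was higher with JSH-23 by 0.67 ± 0.046 and 0.66 ± 0.046, and the integrin gene Itgb3 by 1.10 ± 0.20 and 0.71 ± 0.22 from 1.30 ± 0.160 CPM in WT, the latter with an adjusted p of 0.0501 without WTL replicate 6.

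Mrc1, the mannose receptor, was the 1 member that was not lower with JSH-23 in the absence of LPS. It lies on chr2:14229392-14332057 of the plus strand and was the lowest of the 9 in WT per length. The CPM of Mrc1 was 38.1, 41.3 and 38.1 in WT, 34.6, 34.4 and 32.4 in WTL, 41.8, 38.5 and 39.0 in WT + JSH23, and 42.8, 41.9 and 41.6 in WTL + JSH23. WTL lay below the other groups, WT and WT + JSH23 overlapped, and WTL + JSH23 overlapped WT + JSH23 but not WT. Mrc1 fell with LPS by 0.21 ± 0.051 (adjusted p = 0.000955) without JSH-23, whereas with JSH-23 the LPS change was 0.08 ± 0.050 (adjusted p = 0.174). On total counts alone the latter was -0.16 (adjusted p = 0.00821). The 2 LPS changes differed by 0.30 ± 0.071 (interaction, adjusted p = 0.00613). JSH-23 made a difference of 0.02 ± 0.049 (adjusted p = 0.783) without LPS and of 0.32 ± 0.052 (adjusted p = 2.79e-05) under LPS.

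Other endocytic lectins were mostly higher with JSH-23. Of 7 tested from a list of 9, 6 were higher without LPS and 5 were higher under LPS, and the rest did not pass. Among all genes, 18.8% were higher without LPS and 24.5% under LPS. The median log2 fold change of these 7 was 0.48 and 0.54, against -0.01 and 0.02 for all genes. Clec4n, which encodes the fungal receptor Dectin-2, went from 716 ± 43.1 CPM in WT to 1262 ± 65.9 CPM in WT + JSH23, a rise of 0.82 ± 0.044, and was higher by 0.78 ± 0.044 under LPS. Colec12, a scavenger receptor with a lectin domain, rose by 1.05 ± 0.15 and 1.29 ± 0.16 from a low level of 2.05 ± 0.395 CPM. Clec7a, which encodes the beta-glucan receptor Dectin-1, was higher with JSH-23 by 0.48 ± 0.044 and 0.54 ± 0.045 and fell with LPS by 0.89 ± 0.045. Clec10a was low, at 1.68 ± 0.161 CPM in WT, and higher with JSH-23 by 0.96 ± 0.18 and 0.57 ± 0.20, the latter with an adjusted p of 0.102 without WTL replicate 6 and of 0.0622 without WTL + JSH23 replicate 2. Ly75, which encodes the uptake receptor DEC-205, rose with LPS by 1.03 ± 0.044.

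Fcgr1 encodes CD64, the high-affinity receptor for IgG, and lies on chr3:96282909-96293969 of the minus strand. The CPM of Fcgr1 was 195, 212 and 201 in WT, 104, 114 and 110.2 in WTL, 77.7, 87.0 and 80.5 in WT + JSH23, and 41.1, 47.2 and 36.3 in WTL + JSH23. The groups did not overlap and kept the order seen for Maf. Fcgr1 fell with LPS by 0.88 ± 0.061 (adjusted p = 3.99e-11) and by 0.97 ± 0.068 (adjusted p = 8.11e-11) with JSH-23 present. With JSH-23 it was lower by 1.31 ± 0.062 without LPS and by 1.40 ± 0.068 under LPS. The interaction was -0.09 ± 0.091 (adjusted p = 0.567), and both treatments together left 20.5% of the WT mean.

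The other Fc gamma receptors were lower with JSH-23 as well, but differed in the response to LPS. Fcgr2b, the inhibitory receptor, rose with LPS from 141 ± 4.76 to 330 ± 14.6 CPM, by 1.23 ± 0.058 on the log2 scale, and by 0.72 ± 0.060 with JSH-23 present. In TPM the ratio of Fcgr2b to Fcgr1 was 1.02 ± 0.0273 in WT, 4.41 ± 0.246 in WTL, 1.74 ± 0.179 in WT + JSH23 and 5.88 ± 0.300 in WTL + JSH23, with no overlap between groups. Fcgr3 fell with LPS by 0.64 ± 0.047 and was lower with JSH-23 by 0.30 ± 0.046. Fcgr4 fell with LPS by 0.43 ± 0.11 and was lower with JSH-23 by 1.12 ± 0.12 and 1.28 ± 0.14. Fcer1g, which encodes the signalling chain that activating Fc receptors share, was lower with JSH-23 by 0.27 ± 0.048 and 0.51 ± 0.048. Its LPS change without JSH-23 was 0.35 ± 0.047 on the TMM scale but 0.02 (adjusted p = 0.779) with total counts alone and -0.003 on log2(TPM + 1). Of all 10 genes of Fc gamma receptors and their proximal signalling, 8 were lower with JSH-23 without LPS and 8 under LPS. Of the 10, 7 were lower in both comparisons. The shares of all genes that were lower were 22.1% without LPS and 24.2% under LPS. By edgeR on the TMM scale, Syk passed only under LPS (it passed without LPS too by DESeq2, adjusted p = 0.0395), and Inpp5d was lower only without LPS. Among the kinases, Fgr was lower by 1.38 ± 0.073 and 1.34 ± 0.077, and Lyn by 0.79 ± 0.047 and 1.20 ± 0.047. Syk, the kinase recruited by activated receptors, rose with LPS by 0.93 ± 0.033 and, with JSH-23 present, by 0.55 ± 0.033. Inpp5d, which encodes the inhibitory phosphatase SHIP1, fell with LPS by 1.95 ± 0.062.

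**Figure D4:**
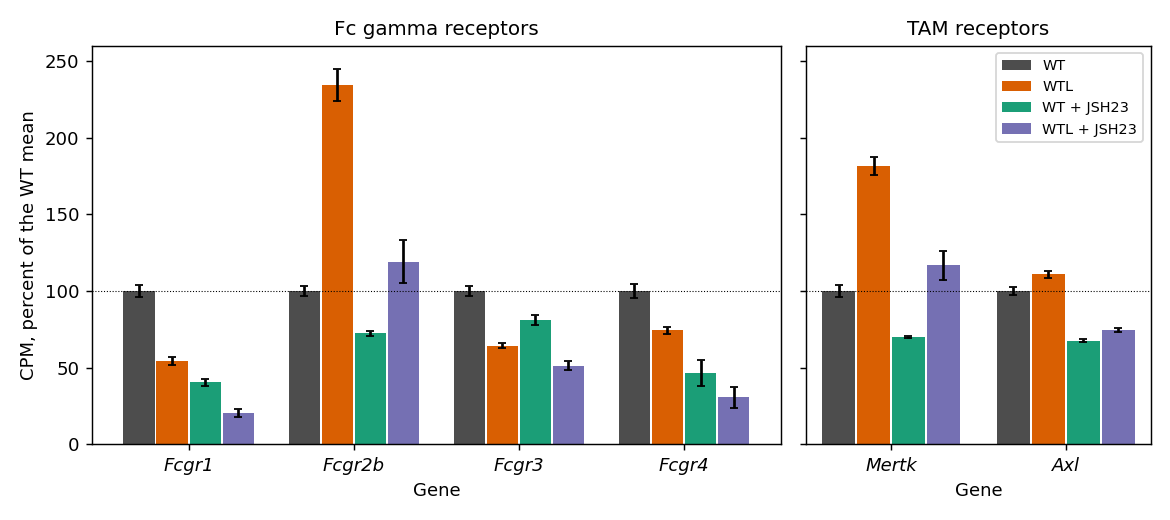
Mean CPM as a percentage of the WT mean for 4 Fc gamma receptors and for the TAM receptors Mertk and Axl (axis from 0), with bars for the 4 groups and error bars of 1 SD over 3 libraries. Fcgr2b rose with LPS while Fcgr1 fell to 54.1%, and Mertk was at 182% with LPS and 70.1% with JSH-23.

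The genes C1qa, C1qb and C1qc encode the chains of C1q, the recognition part of the first complement component, which binds antibody complexes and dying cells and which macrophages make in large amounts. They lie side by side on the minus strand of chromosome 4, at chr4:136895917-136898803 (C1qa), chr4:136889804-136893065 (C1qc) and chr4:136880129-136886187 (C1qb). The CPM of C1qa was 129, 143 and 136 in WT, 121, 119 and 123 in WTL, 79.9, 78.5 and 77.4 in WT + JSH23, and 70.6, 71.4 and 67.6 in WTL + JSH23. The 4 groups of C1qa did not overlap, and both groups with JSH-23 were far below the others. The CPM of C1qb was 499.9, 536 and 526 in WT, 497, 532 and 506 in WTL, 329.5, 329.6 and 330.2 in WT + JSH23, and 303, 295 and 312 in WTL + JSH23. Here WT and WTL overlapped, and the groups with JSH-23 were again lower. The CPM of C1qc was 193, 198 and 189.7 in WT, 162, 175 and 168 in WTL, 122, 119 and 120.2 in WT + JSH23, and 108, 101 and 109 in WTL + JSH23, with no overlap.

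With JSH-23 the chains were lower by similar amounts. The fall was 0.79 ± 0.042 for C1qa, 0.66 ± 0.038 for C1qb and 0.69 ± 0.040 for C1qc without LPS (adjusted p at most 8.53e-12). Under LPS it was 0.79 ± 0.043, 0.75 ± 0.038 and 0.67 ± 0.041 in that order (adjusted p at most 1.43e-11). The LPS changes were smaller, at -0.17 ± 0.041, -0.03 ± 0.038 and -0.20 ± 0.040 without JSH-23 and at -0.17 ± 0.044, -0.12 ± 0.038 and -0.18 ± 0.041 with it. Of these 6 values, that of C1qb without JSH-23 did not pass (adjusted p = 0.569) on the TMM scale, and was 0.01 with no call by DESeq2. In edgeR it passed with upper quartile scaling (-0.11, adjusted p = 0.0152) and with total counts alone (-0.36, adjusted p = 1.70e-08). In limma it passed on log2(TPM + 1) (-0.37, adjusted p = 9.52e-07) and on log2(TPM + 0.1) (-0.37, adjusted p = 8.67e-07). That of C1qb with JSH-23 was lost without WTL + JSH23 replicate 2 (-0.10, adjusted p = 0.0532). None of the 3 interactions passed, with estimates of 0.00 ± 0.060 for C1qa, -0.10 ± 0.054 for C1qb and 0.02 ± 0.057 for C1qc by edgeR, no unadjusted p under 0.05 and no call by DESeq2.

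In TPM, C1qb stood above C1qa by 3.61 ± 0.0701 times in WT, 3.99 ± 0.198 in WTL, 3.96 ± 0.0655 in WT + JSH23 and 4.10 ± 0.228 in WTL + JSH23. WT lay below the other three groups, which overlapped. The ratio of C1qc to C1qa ranged from 1.16 ± 0.0593 in WTL to 1.27 ± 0.0180 in WT + JSH23. After both treatments the chains were at 51.3% (C1qa), 58.2% (C1qb) and 54.8% (C1qc) of their WT means in CPM.

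Among other complement genes, those called with JSH-23 were lower, except for 1 under LPS, and many did not pass. Of 15 tested from a list of 21, 6 were lower without LPS and the other 9 did not pass. Under LPS 7 were lower, 1 was higher and 7 did not pass. Among all genes, 22.1% were lower and 18.8% higher without LPS, and 24.2% were lower and 24.5% higher under LPS. C3, the central component of the cascade, was at 2043 ± 38.1 CPM in WT and 1322 ± 64.2 CPM in WT + JSH23 and fell by 0.63 ± 0.040, with a fall of 0.54 ± 0.040 under LPS. The LPS change of C3 was 0.13 ± 0.040 on the TMM scale and -0.20 with total counts alone. The receptors for the fragments C3a and C5a differed in their LPS response. C3ar1 fell with LPS by 2.03 ± 0.079 and was lower with JSH-23 by 1.54 ± 0.075, whereas C5ar1 rose with LPS by 1.21 ± 0.084 and was lower with JSH-23 by 1.26 ± 0.097. Cd93, once described as a C1q receptor, fell with LPS by 1.72 ± 0.087 and was higher with JSH-23 under LPS by 0.42 ± 0.10. Serping1, the C1 inhibitor, and C5ar2, the second C5a receptor, stayed at or below 1.36 CPM on average in every group.

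The bases before the start of 4 members are shown because C1qb, C1qc and Fcgr1 moved together with JSH-23 and Mrc1 did not. RefSeq promoters (GRCm38.p6) were given for 5 of the 9 genes, and among these members only the 4 shown were searched. The bases printed end before both the RefSeq and the GENCODE start. They were searched on both strands for the core of the PU.1 motif (GAGGAA), the AP-1 site (TGANTCA) and a MAF half-site (TGCTGAC). Capitals mark the PU.1 core on either strand, and no matches overlapped.
C1qb, chr4:136886201-136886450 (minus strand): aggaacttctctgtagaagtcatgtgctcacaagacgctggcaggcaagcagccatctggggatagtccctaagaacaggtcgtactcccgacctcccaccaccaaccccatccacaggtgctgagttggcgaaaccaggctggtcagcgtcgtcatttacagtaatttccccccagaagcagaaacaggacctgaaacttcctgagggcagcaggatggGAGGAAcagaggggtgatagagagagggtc
C1qc, chr4:136893066-136893164 (minus strand): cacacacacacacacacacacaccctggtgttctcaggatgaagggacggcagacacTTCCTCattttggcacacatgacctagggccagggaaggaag
Fcgr1, chr3:96293970-96294219 (minus strand): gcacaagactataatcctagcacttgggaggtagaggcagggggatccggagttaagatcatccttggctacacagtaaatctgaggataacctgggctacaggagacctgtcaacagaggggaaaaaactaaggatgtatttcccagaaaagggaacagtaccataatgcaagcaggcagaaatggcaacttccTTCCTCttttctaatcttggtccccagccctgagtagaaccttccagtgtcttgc
Mrc1, chr2:14229164-14229391 (plus strand): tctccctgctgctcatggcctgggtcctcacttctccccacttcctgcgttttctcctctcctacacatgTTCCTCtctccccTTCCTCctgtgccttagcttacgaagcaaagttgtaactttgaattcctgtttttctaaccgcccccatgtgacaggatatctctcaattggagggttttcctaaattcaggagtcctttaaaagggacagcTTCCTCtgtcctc
The PU.1 core had 1 match in each of C1qb, C1qc and Fcgr1 and 3 matches in Mrc1. At least 1 match occurred in 23.3% of 32851 promoters over the 250 bases used for C1qb and Fcgr1. That share was 9.91% over the 99 bases of C1qc and 21.2% over the 228 bases of Mrc1. For these shorter windows it was counted at the upstream end of every promoter, not next to the gene start. The share of promoters with 3 matches was not counted. The other two motifs had no match in these windows, and occurred in 6.75% and 3.81% of all promoters over 250 bases. A match is a description of the letters only.

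Genes of the wider macrophage list were more divided than the 9 members. Of 11 tested from 17, 3 were higher and 5 lower with JSH-23 without LPS, and 2 were higher and 7 lower under LPS. The shares of all genes were 18.8% higher and 22.1% lower without LPS, and 24.5% higher and 24.2% lower under LPS. Cd14, a co-receptor for LPS, went from 239 ± 4.62 CPM in WT to 372 ± 23.2 CPM in WT + JSH23 and rose by 0.64 ± 0.050. It rose with LPS by 2.41 ± 0.051. Under LPS Cd14 was lower with JSH-23, at 1152 CPM in WTL + JSH23 against 1268 CPM in WTL. That call was lost with total counts alone (adjusted p = 0.853) and on log2(TPM + 1) (adjusted p = 0.89). It was also lost without some single libraries, such as WTL + JSH23 replicate 1 (adjusted p = 0.136). Cd68, a lysosomal protein of phagocytes, was higher with JSH-23 by 0.35 ± 0.048 and 0.52 ± 0.049. Trem2, a lipid receptor of macrophages, fell with LPS by 0.99 ± 0.046. Its JSH-23 difference of 0.12 ± 0.042 without LPS passed, but was lost on log2(TPM + 1) (adjusted p = 0.0821) and without any 1 of WT replicate 4, WT replicate 6, WT + JSH23 replicate 1 or WT + JSH23 replicate 3 (adjusted p between 0.0569 and 0.127). The scavenger receptors Msr1 and Marco were lower with JSH-23, Msr1 by 0.78 ± 0.060 and 0.57 ± 0.060, and Marco by 0.64 ± 0.043 and 0.95 ± 0.043. Cx3cr1, the fractalkine receptor of monocytes and macrophages, was measured at 45.2 ± 2.37 CPM in WT, 9.54 ± 0.910 in WTL, 5.15 ± 0.543 in WT + JSH23 and 1.05 ± 0.374 in WTL + JSH23. It was lower with JSH-23 by 3.14 ± 0.089 and 3.18 ± 0.16. Siglec1, a sialic acid-binding lectin of macrophages, was lower by 1.19 ± 0.061 and 0.91 ± 0.079. Of the 14 dendritic cell markers, 10 were higher and 3 lower with LPS without JSH-23 on the TMM scale. Among all genes, 31.0% were higher and 34.7% lower there. Zbtb46 rose by 1.02 ± 0.044, whereas the LPS change of Flt3, at 0.45 ± 0.11, was 0.12 with total counts alone (adjusted p = 0.314). With JSH-23, Zbtb46 was 0.12 ± 0.045 higher without LPS, a call that was lost on log2(TPM + 1) (adjusted p = 0.104) and when any 1 of 4 libraries was left out (adjusted p between 0.0588 and 0.238).

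Over the 12 libraries, the members fell into patterns that are given as a description, since the points share 4 groups and their treatments. The log2 CPM of the C1q chains had a Pearson r between 0.980 and 0.987 with each other, and Maf and Fcgr1 had an r of 0.995. Adgre1 and Mertk had an r of 0.924. Mrc1 had an r between -0.696 and 0.105 with the other members. Among 7689 protein-coding genes with at least 10 CPM, the closest to Fcgr1 were Cx3cr1 (r = 0.997), Ifit3b (0.997) and Prkcd (0.995), and the closest to Maf were Ifit3b (0.996), Irf2 (0.996) and Tuba1b (0.996). Those closest to C1qa were Iigp1, Clec12a and Htra2 (0.994 to 0.996), to C1qb Htra2, Ifi208 and Ehd4 (0.992 to 0.993), and to C1qc Uba7 and Txnip (0.990 to 0.992). Csf1r was closest to Abca3, Dennd1b and Fermt3 (0.991 to 0.993), Adgre1 to Ptprj, Cfb and N4bp1 (0.991 to 0.996), and Mertk to Ddx6, Ccnl1 and Lacc1 (0.997). For Mrc1 the closest were Nudt4, Arhgap5 and Rcan1 (0.930 to 0.957).

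To ask whether the LPS change itself differed with JSH-23, the interaction was tested. Of the 9 genes 2 were higher (Csf1r and Mrc1), 1 was lower (Maf) and 6 did not pass, where 9.54% of all genes were higher and 8.44% lower. The median interaction was -0.01 for the 9 genes and 0.03 for all genes. Within a group the libraries differed little, with a coefficient of variation of CPM between 0.105% for C1qb in WT + JSH23 and 13.1% for Fcgr1 in WTL + JSH23, the group that holds the library lying farthest from its replicates. Leaving out that library, WTL + JSH23 replicate 3, changed no call of the 9 genes except the interaction of Maf (adjusted p = 0.0618).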

How the data were processed

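RNA-seq libraries of 12 BMDC samples were used as the authors deposited them. The authors trimmed reads with Trim Galore, aligned them to mm10 with STAR (2.6.0c per the labels) and quantified genes with RSEM. The kit for RNA selection differs between the labels (rRNA depletion) and the study's methods (poly(A)), and the release of GENCODE is not given in the sources used here. Per the file headers, each file holds expected counts, in which RSEM divides reads that fit several genes, and TPM, which the authors' pipeline scaled by effective length to a common total. FPKM values of the same files were not used. Gene names and positions are from GENCODE M21 (GRCm38), which matched 55154 of 55335 identifiers without the version.

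Expected counts were rounded and filtered with filterByExpr of edgeR 4.0.16 in R 4.3.3, which left 14357 genes. A quasi-likelihood F-test was fitted to all 12 libraries with 1 mean per group, 8 residual degrees of freedom and TMM scaling (factors between 0.859 and 1.121). Benjamini-Hochberg adjustment covered every gene tested. Adjusted p values in the text are from this fit unless another tool is named. The SE of a log2 fold change is the change divided by the square root of F. CPM uses the scaled library size, and group values are means ± SD of 3 libraries. DESeq2 1.42.0 and limma 3.58.1 on log2(TPM + 1) and log2(TPM + 0.1) served as alternatives, beside other scalings, filters and libraries left out. The scripts were tested on simulated data. Precision is limited by 3 libraries per group, with totals of 24664724 to 34837847 expected counts.

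The 9 members, 8 role lists with 104 genes and 9 marker lists with 56 genes came from general knowledge, and all were chosen with earlier results of these data known. From each role list the text names 3 genes per comparison or as many as met the rule, with the largest changes among those with an adjusted p under 0.05, at least 1 CPM and no overlap between groups, and a set of genes in any case. Likeness to a member is Pearson's r of log2 CPM (prior count 2) over 12 libraries, with the 3 closest genes named. Results of some genes that these rules select are not reported here. Promoter sequences are from RefSeq.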

Additional observations from a re-analysis of the deposited data

Results flagged for a closer look

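Of 60 named genes, 17 had an LPS change that differed with JSH-23 in the interaction test across all genes (edgeR, all 4 groups). The 9 macrophage genes held 3 of these 17. Some of the 60 were named for a large interaction. In that test, 9.54% of all genes were higher and 8.44% lower. The values are the log2 LPS change with JSH-23 minus that without it. The interaction was 0.34 ± 0.0618 (SE, adjusted p = 0.000583) for Csf1r, whose fall with LPS was smaller with JSH-23. It was 0.30 ± 0.0713 (adjusted p = 0.00613) for Mrc1, which changed with LPS by -0.21 in cultures lacking JSH-23 and by 0.08 in cultures given it. It was -0.38 ± 0.111 (adjusted p = 0.0229) for Maf, whose fall was larger with JSH-23. The libraries with and without JSH-23 carry different replicate numbers, and a difference between sets of cultures cannot be told apart from JSH-23 here.

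Among the other named genes, the interaction was positive for Cebpa at 0.63 (adjusted p = 3.40e-06), Inpp5d at 0.54 (0.000178), Adgre5 at 0.28 (0.00803) and Csf2rb at 0.25 (0.00292). All 4 of these fell less with LPS when JSH-23 was present. It was negative for genes that, on the TMM scale, rose with LPS without JSH-23 and had a smaller LPS change with it, namely Cd14 at -0.78 (adjusted p = 2.05e-07), Adgrl2 at -0.93 (0.00179), Fcgr2b at -0.51 (0.000185), Spic at -0.54 (0.000133), Syk at -0.38 (9.04e-06), Itgav at -0.35 (0.00205), Marco at -0.31 (0.00106), Ly75 at -0.26 (0.0057) and Fcer1g at -0.24 (0.0185). Lyn had an interaction of -0.41 (adjusted p = 0.000171). Several of these calls did not hold in other fits. That of Fcer1g was lost with total counts alone (adjusted p = 0.14), on log2(TPM + 1) (0.423) and without WT replicate 6 (0.052), and that of Ly75 with total counts alone (0.0597) and on log2(TPM + 1) (0.275). Those of Adgrl2 (adjusted p = 0.576), Itgav (0.437), Marco (0.108) and Lyn (0.0706) were lost on log2(TPM + 1). The interaction of Maf was lost with total counts alone (adjusted p = 0.0777), on both TPM scales and without any 1 of 4 libraries (0.0503 to 0.0618).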

How the results depend on the processing

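With a fold change of more than 2-fold required, the called macrophage genes went from 8 to 1 with LPS, from 8 to 1 with LPS in the presence of JSH-23, from 8 to 2 with JSH-23, from 8 to 2 with JSH-23 under LPS and from 3 to 0 for the interaction. Leaving out 1 library at a time gave 8 to 8, 7 to 8, 8 to 8, 8 to 9 and 2 to 3 called genes in that order. Over the alternatives, the 9 genes kept call and sign in 911 cases, kept an absent call with a changed sign in 30, gained a call in 7, lost one in 10 and changed sign with a call in at least one of the fits in 5. The other named genes did so in 5078, 124, 86, 121 and 38 cases.

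Sign changes of called values arose with total counts alone or on TPM, mostly for LPS. With total counts alone the LPS change without JSH-23 was -0.0826 for Adgre1, -0.1801 for Axl, -0.1551 for Csf2ra, -0.2043 for C3, -0.3137 for Itgax, -0.2521 for Msr1, -0.1017 for Adgrg6 and -0.263 for Adgre4. On log2(TPM + 1) it was -0.072 for Adgre1, -0.133 for Axl, -0.2092 for Csf2ra, -0.003 for Fcer1g, -0.2071 for C3, -0.3558 for Itgax, -0.2074 for Msr1 and -0.0812 for Adgrg6, and on log2(TPM + 0.1) it was -0.0724, -0.1332, -0.2096, -0.003, -0.2074, -0.3569, -0.2082 and -0.0825 in that order. With JSH-23 present, total counts alone gave -0.1563 for Mrc1, -0.0996 for Axl, -0.0871 for Csf2ra, -0.1297 for Fcer1g, -0.0281 for C3, -0.2282 for Itgax, -0.1978 for Cd68 and -0.0495 for Adgrg6. There log2(TPM + 1) gave -0.0356 for Axl, -0.0836 for Csf2ra, -0.2546 for Itgax and -0.1494 for Cd68, and log2(TPM + 0.1) gave -0.0357, -0.0837, -0.2555 and -0.1498. Under LPS the JSH-23 change of Itgax was 0.0066 with total counts alone. The interaction on log2(TPM + 1) was 0.2053 for Maf and 1.0299 for Cx3cr1. On log2(TPM + 0.1) that of Maf was -0.152, which kept the sign of the main fit without a call. The use of total counts alone was chosen after seeing the data. These scalings shift the median of all genes, and the cause of that shift was not tested.

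With a replicate block, 8, 8 and 3 of the 9 genes were called for LPS without JSH-23, LPS with JSH-23 and the interaction, and 9539, 7960 and 2968 of all genes against 9437, 7828 and 2582 without the block. Libraries of the same number had correlated deviations of 0.037, -0.034 and 0.036 without JSH-23 and of 0.201, 0.064 and 0.333 with it. Pairs of different numbers ran from -0.1 to 0.063 without JSH-23 and from -0.271 to 0.147 with it. The main fit used no block, and whether libraries of the same number share a culture was not tested. No paired analysis was possible for JSH-23 because its libraries share no number with the others. Over all genes, a 2-fold limit left 2361, 1484, 771, 1005 and 192 calls of 9437, 7828, 5881, 6994 and 2582. The counts behind the 9 genes ran from 98 (Maf) to 41299 (Csf1r) per library, so that depth limits Maf in WTL + JSH23 the most.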
